A study of Mus musculus with 24 samples.

Results

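The club cell secretoglobins examined here are Scgb1a1, Scgb3a1 and Scgb3a2. They were taken by name, as every probe set that the platform annotation gives to one of these genes alone. This found 3 probe sets, 1 for each gene (1452543_a_at for Scgb1a1, 1419699_at for Scgb3a1 and 1425218_a_at for Scgb3a2), among 45037 probe sets and 18193 genes with a probe set of their own. All 3 lie on the first of the 2 arrays used per sample, and all 3 passed the filter on dim probe sets. RNA came from lung of mice in 4 groups of 3 samples: wild type treated with PBS (phosphate-buffered saline), wild type treated with HDM (house dust mite, an allergen), IL-13 KO treated with PBS, and IL-13 KO treated with HDM. IL-13 KO is a mouse strain without interleukin 13, a cytokine of allergic inflammation. Background strain, allele design, age, sex, dose and schedule are not given in the sources used here, nor is it said whether each sample came from its own animal. If some did not, the replicate spread behind each p-value is partly technical.

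Secretoglobins are small secreted proteins of mucosal surfaces, and club cells are the non-ciliated secretory cells of the bronchioles that make them in mouse lung. Scgb1a1 (also called CCSP, CC10 or uteroglobin) is the most widely used club cell marker. Scgb3a2 is found in club cells along the airway, and Scgb3a1 mostly in the larger, more proximal airways. Club cells can turn into mucus-producing goblet cells in allergic airways, a process in which IL-13 acts through the transcription factor STAT6. Defining genes of lung were present in every sample: Sftpc, which encodes surfactant protein C, had signals of 3790 to 7102, and Ager, of alveolar type 1 cells, 10020 to 22610.

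Scgb3a1 is the gene whose promoter is held in the RefSeq table used here (1 of the 3 genes matched), and it is shown because Scgb3a1 rose after HDM in KO lung. The 250 bases before its start lie at chr11:49663345-49663594 on the plus strand of GRCm38.p6. Capitals mark the matches to the motifs searched on both strands, which do not overlap each other.
Scgb3a1: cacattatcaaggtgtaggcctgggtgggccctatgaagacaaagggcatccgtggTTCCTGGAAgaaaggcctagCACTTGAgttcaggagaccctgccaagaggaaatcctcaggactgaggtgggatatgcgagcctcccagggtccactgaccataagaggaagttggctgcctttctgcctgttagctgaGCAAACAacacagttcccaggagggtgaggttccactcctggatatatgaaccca
The first match in reading order was to TTCNNNGAA, the general STAT motif, and began 194 bases before the start; 7.02% of 32851 promoter windows of this length hold it. The next, at 174 bases, was to CACTTGA, a core bound by NKX2 factors such as NKX2-1 (2.68% of windows), and the last, at 55 bases, was to TGTTTGC on the minus strand, a FOXA core (4.3%). No match was found for the STAT6 motif, which has a further base between TTC and GAA (in 5.85% of windows), for the C/EBP core TTGCNNAA (9.56%) or for the TATA motif TATAAA (12.4%). These are letters in a window and not sites shown to be bound.

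Scgb3a2 fell to well under its PBS level after HDM in wild-type lung and had a much smaller decrease in IL-13 KO lung. Its signal after PBS was 5503, 4703 and 5236 in wild type (replicates 1, 2 and 3) and 5375, 5544 and 4546 in KO. After HDM it was 1820, 2060 and 1939 in wild type and 4188, 4390 and 4414 in KO. The wild-type HDM samples were thus the 3 lowest of all 12, with no other sample under 4188, and the KO HDM samples lay just below all 6 PBS samples. Group means were 5147 ± 407 and 1939 ± 121 in wild type, and 5155 ± 534 and 4331 ± 124 in KO (PBS then HDM, mean ± SD, n = 3).

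**Figure D1:**
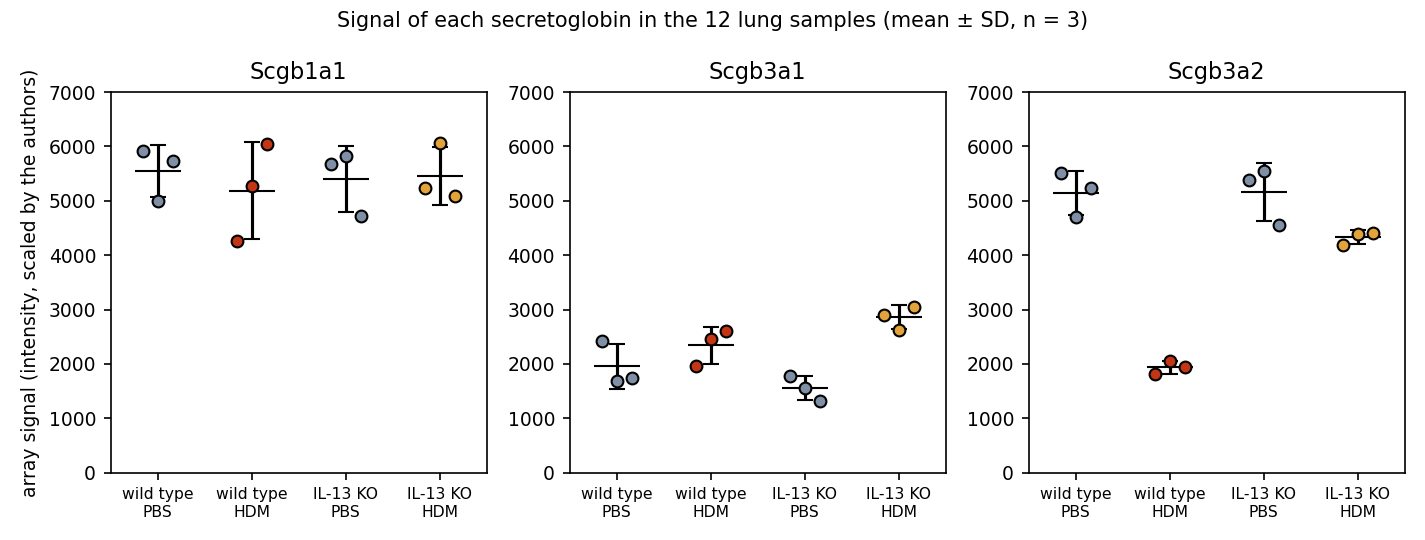
Array signal of Scgb1a1, Scgb3a1 and Scgb3a2 (linear intensity, vertical axis from 0) in the 4 groups. Points are samples and bars are the mean ± SD of 3; the Scgb3a2 signals of wild type after HDM, 1820 to 2060, are under those of every other sample.

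In wild type the mean Scgb3a2 signal fell by 62.3% with HDM. On the log2 scale the change was -1.40 ± 0.10 (SE; 95% interval -1.63 to -1.18; limma, adjusted p = 1.17e-06), the 46th smallest p of 31496 probe sets tested. Across all probe sets 8.95% were called in this comparison (adjusted p under 0.05), 4.34% higher and 4.61% lower, and Scgb3a2 was the 1 secretoglobin of 3 to be called. The groups did not overlap, which was also the case, in the lower direction, for 12.7% of probe sets. Among the 100 brightest probe sets, 19 were called lower, and the change of Scgb3a2 was the lowest of the 100.

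In KO the mean signal fell by 16%, a log2 change of -0.25 ± 0.10 (95% interval -0.47 to -0.02). This was not called (limma, adjusted p = 0.167, where 5.16% of probe sets were called lower) with the authors' scaling, although the groups did not overlap, as in 15.8% of probe sets in this direction. With quantile normalization, which gives every array the same distribution, the change was -0.52 and was called (limma, adjusted p = 0.000496). The rank of Scgb3a2 by signal on each array, which no scaling alters, was 6 to 10 in the KO PBS samples and 47 to 51 in the KO HDM samples. In wild type it was 10 to 12 after PBS and 251 to 330 after HDM.

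The HDM effect on Scgb3a2 differed between the genotypes. The difference, KO effect minus wild-type effect, was 1.16 ± 0.15 (95% interval 0.84 to 1.47; limma, adjusted p = 0.00403), and 0.94 with quantile normalization (adjusted p = 0.00156). Of 31496 probe sets 34 were called in this test, which is 0.108%, and Scgb3a2 was the 1 among them with a positive difference (0.00318% of probe sets). It was also called when each of the 12 samples was left out in turn (adjusted p = 0.00695 to 0.0206). Without the 3 samples that carry skeletal muscle RNA, wild-type PBS replicate 2 and wild-type HDM replicates 1 and 2, the difference was 1.22 and was not called (adjusted p = 0.066); that fit has a single wild-type HDM sample, assumed to vary like the others.

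Between genotypes after HDM, Scgb3a2 had a 2.23-fold higher mean signal in KO, a log2 difference of 1.16 ± 0.10 (95% interval 0.93 to 1.38; limma, adjusted p = 5.6e-05). In that comparison 0.664% of probe sets were called, 0.235% higher and 0.429% lower. The groups did not overlap, as in 7.68% of probe sets in this direction (7.31% in the other). After PBS the means of the genotypes were almost equal, with a log2 difference of -2e-04 ± 0.10 and a 95% interval of -0.22 to 0.22 (limma, adjusted p = 0.9995; 0.0508% of probe sets called, 0.0254% in each direction). The samples overlapped; groups apart made up 5.53% of probe sets in the higher and 5.73% in the lower direction. These comparisons share groups with the HDM effects above and are not independent of them.

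The actin control probe sets give a 5' to 3' signal ratio that falls as RNA degrades. KO HDM samples had ratios of 0.464 to 0.656, below those of wild-type HDM samples (0.695 to 0.832) and KO PBS samples (0.748 to 0.854). Wild-type PBS samples had 0.898, 0.409 and 0.707, so the lowest ratio of all 12 samples was in that group, in replicate 2, whose Scgb3a2 signal was 4703. The Gapdh ratio overlapped between these groups (1.04 to 1.16, 1.09 to 1.16 and 1.045 to 1.202). The actin ratio therefore moves with the genotype comparison after HDM and with the HDM effect in KO, and its part in the results was not tested.

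Scgb1a1 was not called in any of the 5 comparisons. Its signal was 5913, 4998 and 5727 in wild type after PBS and 4255, 5263 and 6047 after HDM. In KO it was 5676, 5815 and 4712 after PBS and 5228, 6064 and 5085 after HDM. The groups overlapped throughout, and the highest sample, in KO after HDM, was 1.42-fold above the lowest, in wild type after HDM. The HDM effect was -0.11 ± 0.14 in wild type (95% interval -0.40 to 0.18; limma, adjusted p = 0.738) and 0.02 ± 0.14 in KO (-0.27 to 0.31; adjusted p = 0.961). The difference of these effects was 0.12 ± 0.19 (-0.29 to 0.53; adjusted p = 0.976). KO minus wild type was -0.04 after PBS (-0.33 to 0.25; adjusted p = 0.972) and 0.08 after HDM (-0.21 to 0.37; adjusted p = 0.931). These values have no settled direction: quantile normalization turned the sign of the effect in KO (-0.19), of the difference of effects (-0.12) and of KO minus wild type after PBS (0.07) and after HDM (-0.05), and leaving out wild-type HDM replicate 1 turned that of the effect in wild type (0.03). A fall of the size seen for Scgb3a2 in wild type therefore lies outside the interval for Scgb1a1.

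The brightness of Scgb1a1 bears on this. It ranked 3 to 25 among all probe sets of its array, at 73.9% to 95.8% of the brightest signal there, and its 2 lowest values fell on the 2 arrays with the lowest maximum (4255 of 4884 in wild-type HDM replicate 1 and 4712 of 4917 in KO PBS replicate 3). No saturation flags were used here, and whether differences were compressed near the top of the range was not tested. Scgb3a2 after PBS was as bright, at 77.3% to 92.5% of its array's maximum, and its fall with HDM was measured from that level. In wild type that fall ended at 25.24% to 37.25% of the maximum. Among the 100 brightest probe sets, Scgb1a1 and Scgb3a2 included, 29 were called for the HDM effect in wild type and 27 in KO. The least bright of the 100 had a mean signal of 3400, against 5398 for Scgb1a1. These 100 were ranked over both arrays of each sample, which have different ranges. The maxima were 4884 to 7682 on the first array, which reads Scgb1a1, and 15050 to 23020 on the second. The count therefore does not describe the top of the first array alone. Neither the fall of Scgb3a2 nor this count bears on small changes near the top of the range, which were not tested.

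Scgb3a1 rose after HDM in KO lung. Its signal there was 1773, 1563 and 1325 after PBS and 2904, 2627 and 3051 after HDM, so that every HDM sample was above every PBS sample. In wild type it was 2429, 1695 and 1745 after PBS and 1961, 2466 and 2612 after HDM, with PBS replicate 1 inside the HDM range. The KO means, 1554 ± 225 and 2861 ± 215 (SD, n = 3), differed 1.84-fold, a log2 change of 0.88 ± 0.16 (95% interval 0.55 to 1.22; limma, adjusted p = 0.00223). In this comparison 10.1% of probe sets were called, 4.96% higher, and 14.6% had higher groups without overlap. With quantile normalization the rise was 0.68 (limma, adjusted p = 0.00426).

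In wild type the change of Scgb3a1 was 0.27 ± 0.16 and was not called (95% interval -0.06 to 0.60; limma, adjusted p = 0.367). The difference between the genotypes' HDM effects was 0.61 ± 0.22, and it was not called either (0.14 to 1.09; limma, adjusted p = 0.754). The rise is thus not shown to differ between the genotypes. Scgb3a1 was lower in KO after PBS by 0.32 ± 0.16 and higher in KO after HDM by 0.29 ± 0.16, values that were not called (limma, adjusted p = 0.725 and 0.644). In the HDM groups the samples did not overlap, as in 7.68% of probe sets in the higher direction.

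**Figure D2:**
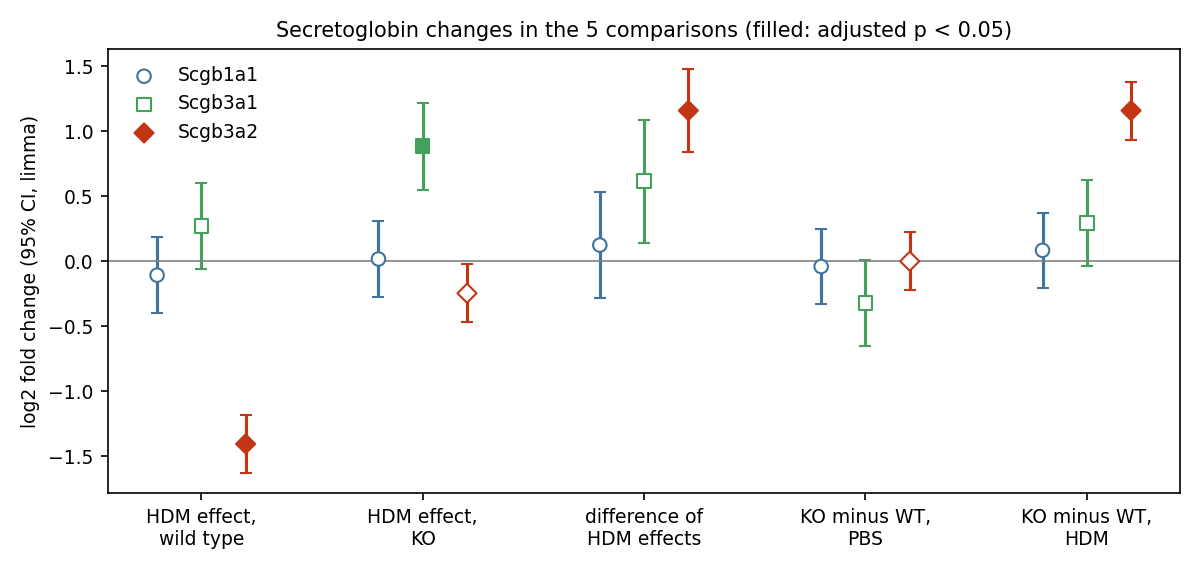
Log2 fold changes of Scgb1a1, Scgb3a1 and Scgb3a2 (vertical axis) in the 5 comparisons, with 95% confidence intervals from limma. Filled symbols have an adjusted p under 0.05; Scgb3a2 has 3 such values (-1.40, 1.16 and 1.16), Scgb3a1 has 1 (0.88) and Scgb1a1 none.

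The 3 genes can also be set against one another within a sample, since all 3 were read on the same array and a difference of log2 signals there does not move with the scale of that array. Only changes of these differences between groups are read, not the difference of one probe set from another. Scgb3a2 minus Scgb1a1 was -0.10, -0.09 and -0.13 in the wild-type PBS samples and -1.22, -1.35 and -1.64 in the wild-type HDM samples, a change of -1.30. In KO it was -0.08, -0.07 and -0.05 after PBS and -0.32, -0.47 and -0.20 after HDM, a change of -0.26. After PBS the SD of the difference was 0.021 in wild type and 0.014 in KO. Both probe sets were then at 77.3% to 95.8% of their array's maximum, where compression was not tested, so the small spread says nothing of how steady the genes were.

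Scgb3a1 minus Scgb1a1 moved the other way, by 0.38 in wild type and by 0.87 in KO. Scgb3a2 minus Scgb3a1 was 1.18 to 1.58 in wild type after PBS and -0.43 to -0.11 after HDM, a change of -1.67, and it changed by -1.13 in KO. The HDM and PBS groups did not overlap in any of these 6 within-genotype changes. Scgb3a2 minus Scgb3a1 follows from the other differences by subtraction, so the changes are not separate results. How often other pairs of probe sets separate in this way was not computed. A two-sided exact permutation test of 3 against 3 cannot give a p below 0.1, and each of the 6 reached that floor (0.12 after Benjamini-Hochberg adjustment over the 12 changes computed). The other 6 were changes between genotypes, and 4 of them also gave the floor. Those were Scgb3a2 minus Scgb1a1 (0.04 after PBS and 1.07 after HDM) and Scgb3a2 minus Scgb3a1 (0.32 and 0.86). Scgb3a1 minus Scgb1a1 gave exact p = 0.2 after PBS and 0.3 after HDM.

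**Figure D3:**
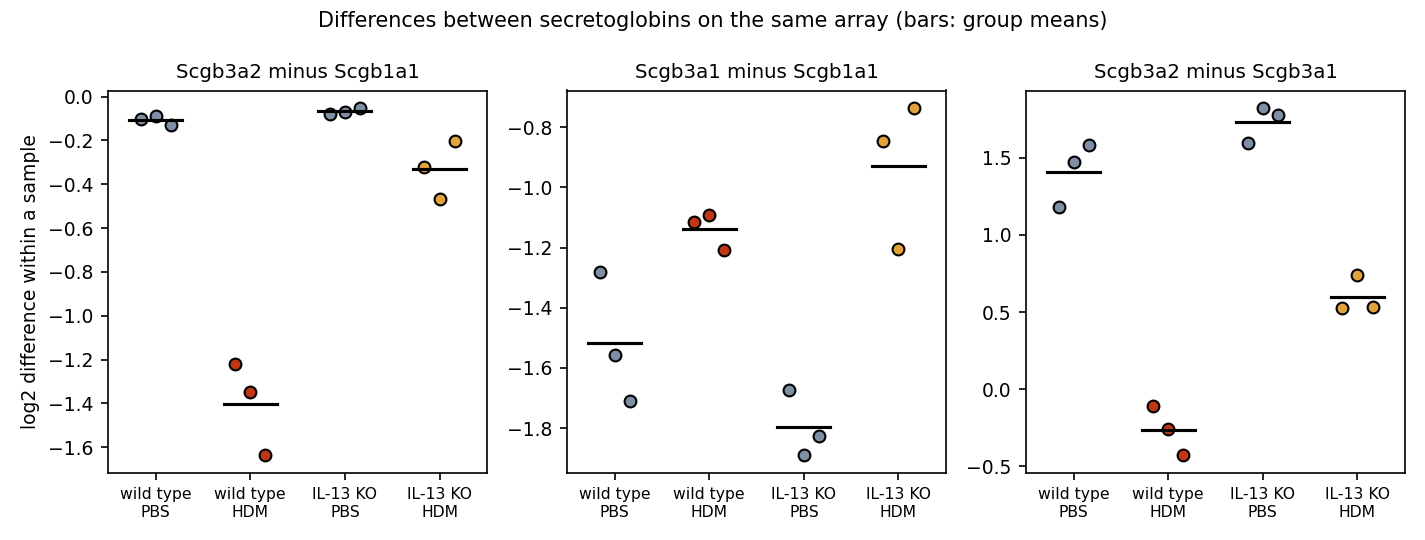
Log2 difference between 2 secretoglobins on the same array (vertical axis) for the 12 samples; bars are means of 3 samples, and the axis differs between panels. Scgb3a2 minus Scgb1a1 lies from -0.13 to -0.05 in the PBS samples and from -1.64 to -1.22 in wild type after HDM.

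Samples of a group that were high for one gene tended to be high for the others. After the group means were removed, the 12 samples gave r = 0.72 between Scgb3a2 and Scgb1a1, 0.72 between Scgb3a2 and Scgb3a1, and 0.62 between Scgb3a1 and Scgb1a1, given as a description. These points share the array and its scale. Without removing the means r was 0.35, -0.30 and 0.25.

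The genes whose pattern over the 12 samples was most like that of Scgb3a2, by Pearson r, were Hp (haptoglobin, 0.95), Pon1 (paraoxonase, 0.95), Bex2 (0.95), Selenbp1 (selenium-binding protein, 0.94) and 2610028H24Rik (0.93). With the group means removed, r was 0.45, 0.24, -0.18, 0.29 and 0.36 in the same order, so the likeness is mostly one of group means. Pon1, for example, had means of 179 and 48.3 in wild type and 261 and 170 in KO (PBS then HDM). Hp, Pon1 and Selenbp1 are also in the list of club cell markers below. For Scgb3a1 they were Bud31 (0.96), Mdh1 (0.94), the metallothionein Mt1 (0.93), Wdyhv1 (0.93) and Rab29 (0.93), which had their highest group mean in KO after HDM, as Scgb3a1 did; with the group means removed, r was 0.71 to 0.88. For Scgb1a1, which has little spread to follow, they were Krit1 (0.89), Vps13b (0.85), Xpo5 (0.85), Prss2 (0.84) and Atad3a (0.84), with 0.85 to 0.93 once the group means were removed. All these genes were picked for the highest r over the same 12 samples among all tested probe sets of a single gene. Like group means and high r within groups follow in part from that choice, and shared regulation was not tested.

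Among other club cell markers, 13 fell after HDM in each genotype, while Scgb1a1 was not called in either. Of 23 listed genes 20 had a probe set of their own and all 20 were tested. Among these, Sult1d1 passed the filter only through its highest group, wild-type PBS, and had to differ there. It is counted among the 13 in each genotype. After HDM in wild type 13 were lower and 1 was higher (median log2 change -0.67, against -0.0031 over 14482 genes, of which 11.9% were called, 6.02% higher and 5.92% lower). In KO 13 were lower and none higher (median -0.64, against 0.0078, 12.6% called, 6.6% higher and 6% lower); 10 genes were lower in both, 3 in wild type alone and 3 in KO alone by the threshold. In bulk tissue a smaller share of cells of a type and less RNA per cell cannot be told apart.

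Among them were the drug-metabolising enzymes Cyp4b1 (-1.36 in wild type and -0.98 in KO), Cyp2b10 (-1.11 and -1.05), Gsta3 (-1.44 and -1.49) and the epoxide hydrolase Ephx1 (-1.19 and -1.04). Cldn10, a claudin of club cells, had -0.38 in wild type, not called, and fell in KO (-1.02). A further probe set of Gsta3 had -0.71 and -0.24 and was not called, while those of Cyp2b10 were called. Hp (-1.01 and -0.45), Pon1 (-1.74 and -0.60) and Selenbp1 (-1.63 and -0.83, and -1.69 and -0.92 on another probe set) had smaller falls in KO, though limma did not call the difference (adjusted p = 0.553, 0.126 and 0.0899). Selenbp1 and Cyp2b10 have close relatives whose RNA the probes may also bind. The 1 gene that rose in wild type was Aldh1a7, a relative of retinal dehydrogenases (0.60, and -0.45 in KO, not called); it and Cyp2f2, below, were chosen after their values were seen.

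No marker of this list was called for the difference of HDM effects between genotypes (0 of 20 by limma, against 0.2% of genes called, 0.00691% higher and 0.193% lower). At an unadjusted p under 0.05 there were 7 of 20, where all genes gave 6.44%. They went both ways: Cyp4b1, Selenbp1, Pon1 and Hp had positive differences, and Aldh1a7, Chad and Cldn10 negative ones. Over the whole list 12 differences were positive and 8 negative. Aldh1a7 had the smallest p there (-1.05, limma, adjusted p = 0.0854). After HDM, Pon1 (1.68), Selenbp1 (0.88) and Hp (0.72) were higher in KO than in wild type and Aldh1a7 was lower (-0.90), 4 of 20 where 0.953% of all genes were called, 0.318% higher and 0.635% lower. After PBS none was called (0 of 20 by limma, against 0.0345% of genes), and 2 of 20 had an unadjusted p under 0.05, where all genes gave 7.73%. The change of Scgb3a2 in wild type (-1.40) lay inside the range of the list (-1.74 to 0.60), and its change in KO (-0.25) was smaller than the list's median. Cyp2f2, a cytochrome P450 used as a club cell marker alongside Scgb1a1, fell from 5673 ± 483 to 3602 ± 390 in wild type (SD, n = 3; log2 change -0.66, limma, adjusted p = 0.00467). The KO means were 5430 ± 907 and 4470 ± 205, a change not called (-0.27, limma, adjusted p = 0.231).

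**Figure D4:**
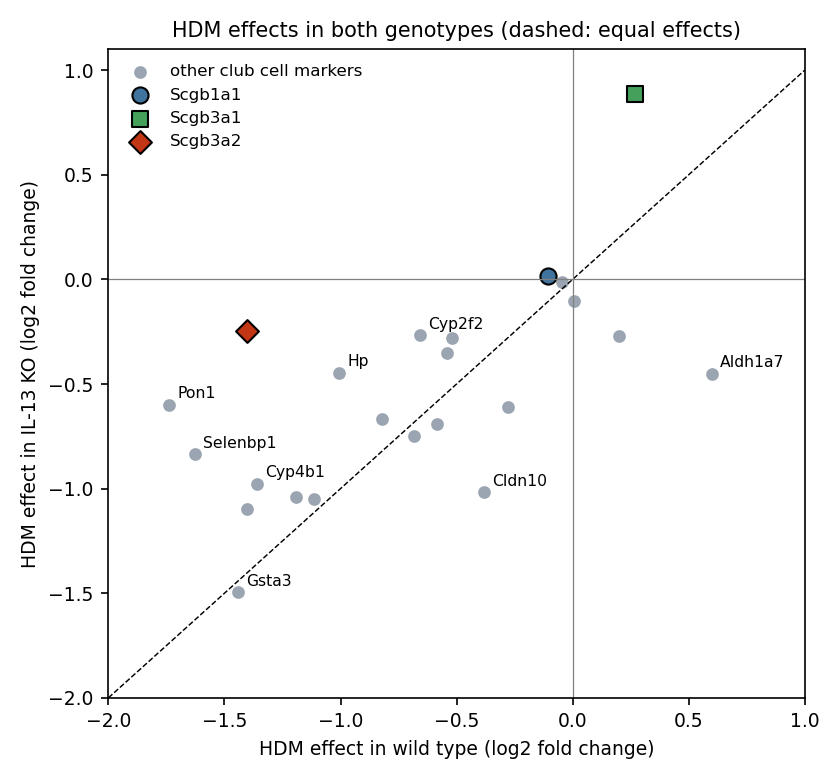
HDM effect in wild type (horizontal axis) against that in IL-13 KO (vertical axis), both as log2 fold change, for 20 other club cell markers (grey) and the 3 secretoglobins; the dashed line marks equal effects. Scgb3a2 lies at -1.40 and -0.25, Scgb1a1 near 0 on both axes and Scgb3a1 at 0.27 and 0.88.

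Of 12 transcription factors that bind secretoglobin promoters or govern airway epithelium, Foxa1 (-0.83 in wild type and -0.77 in KO) and Gata6 (-0.47 and -0.76) were lower after HDM in both genotypes. Elf5 was higher with HDM in wild type (0.66), had a value of -0.11 in KO that was not called, and was lower in KO than in wild type after HDM (-1.19). For the difference of HDM effects 0 of 12 were called (limma, against 0.2% of genes), and 1 of 12 had an unadjusted p under 0.05, where all genes gave 6.44%. Of 5 tested genes for proteins reported to bind secretoglobins, the matrix protein fibronectin Fn1 rose in both genotypes (0.45 and 0.72) and the other 4 were not called. Over all genes, 6.02% were called higher and 5.92% lower with HDM in wild type, and 6.6% and 6% in KO. After HDM, 0.635% were called lower in KO than in wild type.

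The other cell types of the tissue moved as follows. Among goblet cell genes, the mucin Muc5ac had log2 changes of 3.50 in wild type and 2.48 in KO, and the anion exchanger Slc26a4 4.62 and 1.93, all called higher. The lectin Itln1 had 5.49 in wild type and 0.14 in KO, not called; Itln1, Agr2 and Retnlb passed the filter only through wild type after HDM and had to differ there, so no count over the list is given. The summed signal of the 15 goblet genes was 1638 to 2207 in wild-type PBS, 10380 to 11530 in wild-type HDM, 1361 to 1826 in KO PBS and 3494 to 4264 in KO HDM samples. The group with the highest goblet sums was thus the group with the lowest Scgb3a2 signals. Leukocyte genes were higher in 8 of 10 and 6 of 10 (6.02% and 6.6% of all genes), with sums of 2761 to 3220, 6485 to 8844, 3686 to 4317 and 7785 to 8809 in the same order. The part of either in the fall of Scgb3a2 was not tested.

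The counts that follow stand beside 5.92% of genes called lower in wild type and 6% in KO, and the smallest of them are near those shares. Ciliated cell genes were lower in 4 of 16 in wild type and 2 of 16 in KO, alveolar type 1 genes in 7 and 5 of 10, endothelial genes in 8 and 7 of 8 and pan-epithelial genes in 3 and 3 of 7. Alveolar type 2 genes were higher in 1 and lower in 2 of 11 in wild type, and lower in 1 in KO. No basal cell gene (3 tested), neuroendocrine gene (1 tested) or skeletal muscle gene (9 tested) was called by limma for the HDM effect in either genotype; at an unadjusted p under 0.05 there was 1, a skeletal muscle gene in KO. The summed signal of skeletal muscle genes was 3073, 1896 and 6320 in wild-type PBS replicate 2 and wild-type HDM replicates 1 and 2 and at most 576 in the other samples. In KO against wild type after HDM all 9 of these genes had negative values (median -1.96). None was called, and 7 had an unadjusted p under 0.05 (limma), where all genes gave 10.2%. Mylpf and Tnni2, counted among the 9, passed the filter only through wild type after HDM and had to differ there. The counts and the median are therefore given as values only. The 3 samples with high sums are all wild type, so muscle signal moves with that genotype comparison, and its part was not tested. Without those 3 samples the fall of Scgb3a2 in wild type was -1.47 (limma, adjusted p = 0.0004429).

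The remaining secretoglobins on the arrays were at or near the background. Scgb1b2 (2.42 to 16.5) and Scgb2b27 (3.87 to 19.1) were under the filter in all comparisons. Scgb1b27, an androgen-binding protein subunit, passed it with 24.3 to 68 and was not called in any of the 5 comparisons (limma). Il13 had 3.3 to 29.9 over all samples and was under the filter; the position of its probe set relative to the deletion was not examined, and it is no check of the genotypes.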

How the data were processed

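Each of 12 lung RNA samples was hybridised to 2 arrays. The authors deposited a linear intensity for each probe set of each array. For the first of the 2 arrays of each sample, the mean after trimming 2% at both ends was 150, so the authors had scaled these arrays. The deposited scale was kept for both arrays. Software and detection calls are not given in the sources used here. Groups came from the sample titles. Tests used log2(value + pseudocount), the pseudocount being 7 or 11 (each array set's 10th percentile), so changes of dim genes are understated. Control probe sets and those under the 30th percentile of mean signal were left out, leaving 31496. Limma 3.58.1 in R 4.3.3 fitted the 4 groups per array set (8 residual degrees of freedom, eBayes with trend), with Benjamini-Hochberg adjustment over both sets at 0.05, and was tested on simulated data. Lists count each gene once, by its brightest tested probe set. All probe sets of the 3 genes were named, as were up to 8 called club cell markers and up to 3 called genes of another list by smallest p, and the 5 genes most alike each; not all of these are printed. The members, lists and tests were chosen with earlier results of these data known, and the promoter motifs with the sequence known. Gene names came from the platform annotation and promoter letters from RefSeq. The number of arrays limits the precision.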

Additional observations from a re-analysis of the deposited data

Results flagged for a closer look

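The HDM effect on Scgb3a2 differed between the genotypes by 1.16 on the log2 scale (KO effect minus wild-type effect; limma, adjusted p = 0.00403). All 3 wild-type HDM samples had signals of 1820 to 2060, under those of all KO HDM samples, 4188 to 4414.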

How the results depend on the processing

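Leaving out each sample in turn changed no call of the 3 secretoglobins. Scgb3a2 then ranged from -1.47 to -1.35 for the HDM effect in wild type, 1.07 to 1.22 for the difference of effects and 1.11 to 1.20 for KO against wild type after HDM, and Scgb3a1 in KO from 0.78 to 0.98. Quantile normalization made the fall of Scgb3a2 in KO a call (-0.52); the cause was not tested. Without the 3 samples with skeletal muscle signal the difference of effects for Scgb3a2 was 1.22 and not called, in a fit with fewer samples. Other alternatives (pseudocounts of 1 and 32, no filter, no trend, adjustment within each array set, the 2 compared groups alone, and, added after the data were seen, 1 fit over both array sets and a filter on mean log2) changed no call of the 3 genes, and 156 recomputed within-sample differences kept their sign. Fitting the 2 groups alone gave 1725 called probe sets for the HDM effect in wild type instead of 2818, and leaving out the muscle samples 1427, with 15 instead of 34 for the difference of effects and 112 instead of 209 for KO against wild type after HDM. Leaving out 1 sample gave 1732 to 2784 for the HDM effect in wild type, 1911 to 3325 in KO, 17 to 33 for the difference of effects, 12 to 26 for KO against wild type after PBS and 115 to 228 after HDM. The lowest of these were without wild-type HDM replicate 3 (1732), KO HDM replicate 3 (1911 and 115) and wild-type HDM replicate 2 (17), and the highest after PBS without wild-type PBS replicate 1 (26). No clear pairing of the samples by replicate number was seen. Deviations of same-numbered samples correlated at -0.07 to 0.17 (1 of 18 pairs over 0.1), and 5 of 12 samples correlated best with their own number. With 3 samples a group, these values cannot settle whether samples were paired. With the replicate block 2741 probe sets were called for the HDM effect in wild type and 31 for the difference of effects, where Scgb3a2 had a value of 1.16 and an adjusted p of 0.0184 (limma).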

Other observations

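Scgb3a1 and Il13, the deleted gene, lie on the same chromosome, 11, with 64 protein-coding genes between them in the RefSeq table (GRCm38.p6). Of these, 44 were tested, and 1, the collagen gene Col23a1, was called between the genotypes after PBS and also after HDM (limma). Over all 14482 genes, 0.0345% were called after PBS and 0.953% after HDM. Scgb1a1 is on chromosome 19 and Scgb3a2 on chromosome 18.

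The 3 secretoglobins together made up 21.9% to 24.6% of the summed signal of secretoglobins and the 20 other club cell markers in wild-type PBS samples, and 24.6% to 29.6% in wild-type HDM samples. In KO the shares were 21.4% to 22.6% after PBS and 27.6% to 32.1% after HDM. These shares set probe sets of different brightness together and are given as values only.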
